A study of Homo sapiens with 4 samples.

Results

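GADD45A, BTG1, BTG2, PLK2, PLK3 and SFN are genes through which p53 is known to slow or stop the cell cycle, and p53 binding was described at these 6 genes. Their peaks were the p53 ChIP-seq peaks with a summit inside one of the genes or within 10 kb of it. The genes were chosen by name, with earlier results of these data known. The rule found 5 peaks among the 11488 peaks of 4 lists. The 6 genes stand among 20033 protein-coding genes of the RefSeq table.

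All libraries came from H1299, an established non-small-cell lung carcinoma line with the genotype p53-/- in the labels, so that the p53 studied was expressed from introduced copies. The CASM34 group (CASM34 1 and CASM34 2) expressed the mutant form of that name, and the p53WT group (p53WT 1 and p53WT 2) expressed wild-type p53. The series title speaks of synonymous mutations, which change a codon and not the amino acid; the labels do not say which base CASM34 changes, how p53 was expressed or at what level, and they name no DNA-damaging treatment. Chromatin cut with micrococcal nuclease and sonication was precipitated with DO-1, an antibody to the amino-terminal part of p53.

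The lists held 1712 peaks in CASM34 1, 3211 in CASM34 2, 1604 in p53WT 1 and 4961 in p53WT 2. They carry no read counts, so the depth is unknown, and the lack of a peak at a gene is not evidence that p53 did not bind it. Nothing says that the replicates were separate cultures, so a p-value measures only the spread between these libraries.

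As background, p53 binds DNA as a tetramer at a pair of 10-base units and raises the transcription of nearby genes. Several of its targets act on the cell cycle beside the better known inhibitor p21. GADD45A protein binds the CDK1 and cyclin B kinase and PCNA after DNA damage. BTG1 and BTG2 are antiproliferative proteins that bring the CCR4-NOT deadenylase to messenger RNA. PLK2 and PLK3 are polo-like kinases induced by stress, and SFN, or 14-3-3 sigma, holds cyclin B and CDK1 in the cytoplasm.

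Peaks were found at 3 of the 6 genes, beside 22.2% of all protein-coding genes with a call in at least 1 library, and both forms of p53 had one at GADD45A. CASM34 2 called GADD45A and BTG1, and p53WT 2 called GADD45A and PLK2. CASM34 1 and p53WT 1 called 0 of the 6 genes. BTG2, PLK3 and SFN had a peak in 0 of the 4 libraries. Under the same rule 1.67% of protein-coding genes were called in CASM34 1, 10.9% in CASM34 2, 1.39% in p53WT 1 and 16.2% in p53WT 2. The absence of the 6 genes from the libraries numbered 1 therefore stands beside a list that reaches few genes at all, and 2 of 6 in each library numbered 2 is a count too small to set apart from its background. The calls at BTG1 and PLK2 and the p53WT 2 call at GADD45A were lost past a −log10 q of 5. They were also lost when every list was held to its 1604 strongest peaks. In both settings the GADD45A call of CASM34 2 stood alone. Past 5, 1.74% of protein-coding genes were called in CASM34 2 and 1.83% in p53WT 2. With equal lists it was 3.93% in CASM34 2 and 3.53% in p53WT 2. Whether binding at GADD45A differed in strength between these libraries was not tested. The PLK2 call was lost already past a −log10 q of 3.

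The members are short, with lengths between 1308 bp (SFN) and 6105 bp (PLK2) against a median of 24130 bp for protein-coding genes. Among the 3829 protein-coding genes of at most 6105 bp, a comparison added after the data were seen, 1.78% were called in CASM34 1, 7.26% in CASM34 2, 1.91% in p53WT 1 and 10.3% in p53WT 2. These shares were below those of all protein-coding genes in the libraries numbered 2 and slightly above them in the libraries numbered 1.

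**Figure D1:**
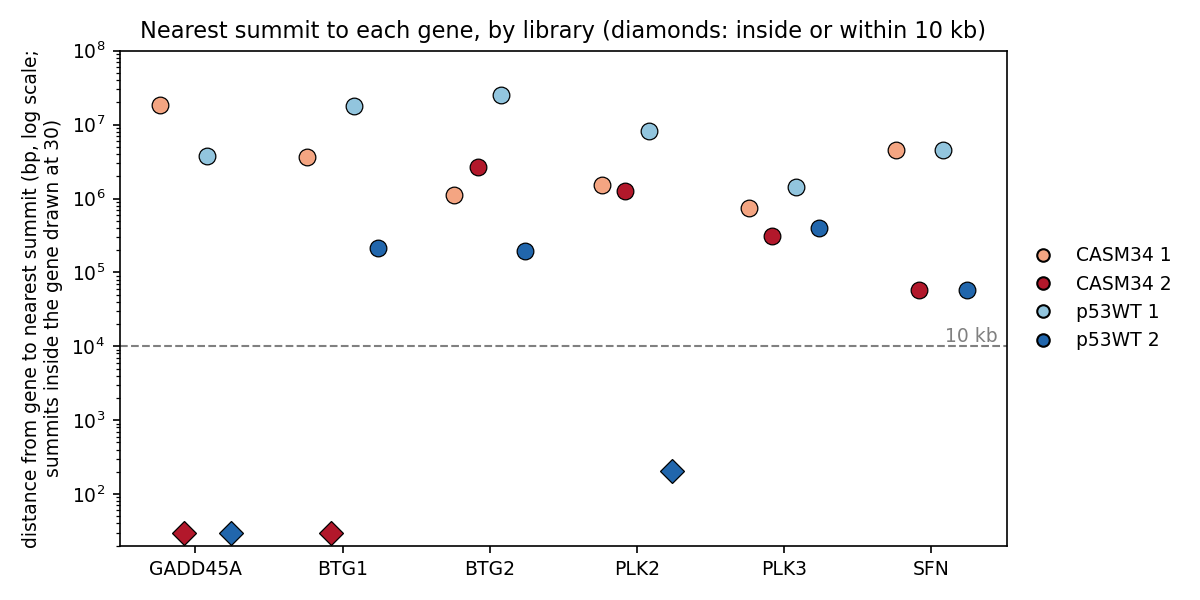
Distance in bp (log scale) from each of the 6 genes to the nearest summit, with a point per library. Diamonds are summits inside the gene (drawn at 30 bp) or within 10 kb of it, below the dashed line: GADD45A in CASM34 2 and p53WT 2, BTG1 in CASM34 2 and PLK2 in p53WT 2. The nearest points above the line are those of SFN at about 57.4 kb.

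GADD45A, on chromosome 1 from 67685201 to 67688334 (GRCh38, 3134 bp), was the 1 gene of the 6 with peaks under both forms of p53. The gene is known to be transcribed from its end of lower coordinate, and distances here are from that end; exons and introns were not separated. CASM34 2 had 2 peaks in it. The first ran from 67685289 to 67685509 with its summit 146 bp into the gene, and had a deposited fold enrichment of 4.76 and a deposited −log10 q of 3.51. Both values are as the authors' peak caller gave them and serve only to rank peaks within a list. The second CASM34 2 peak was stronger and much wider. It ran over 776 bp, from 67685864 to 67686639, with a summit 915 bp into the gene, a fold of 6.08 and a −log10 q of 6.44. The same interval had a weaker deposited summit 1357 bp into the gene, with a −log10 q of 3.97. In p53WT 2 there was 1 peak, from 67685709 to 67686011, with its summit 672 bp into the gene, a fold of 4.78 and a −log10 q of 3.07. The p53WT 2 summit thus fell between the CASM34 2 summits.

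The p53WT 2 peak overlapped the wide CASM34 2 peak by 148 bp, with summits 243 bp apart. It did not overlap the first CASM34 2 peak, from which it was separated by 199 bp. Of the 1089 protein-coding genes called in both libraries numbered 2, which are 5.44% of all, 68.6% had overlapping peaks, and their nearest summits lay at a median of 153 bp from each other. In 40.6% of these genes they lay farther apart than the 243 bp at GADD45A. The 2 peaks of CASM34 2 at GADD45A were 354 bp apart, and 11.4% of the genes that this library called, or 1.24% of all protein-coding genes, had at least 2 peaks. In p53WT 2 it was 2.33% of all protein-coding genes. The nearest peaks in the libraries numbered 1 were 18.5 Mb away in CASM34 1 and 3.71 Mb away in p53WT 1. A call in both libraries numbered 2 and in neither numbered 1, as at GADD45A, was made for 4.20% of protein-coding genes.

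BTG1 had a peak in CASM34 2 alone of the 4 libraries. The gene lies on chromosome 12 from 92140278 to 92145846, and is read from the end of higher coordinate. The CASM34 2 peak ran from 92145526 to 92145733 inside the gene, with its summit 250 bp downstream of the start, a fold of 5.04 and a −log10 q of 3.42. The same summit was 489 bp from BTG1-DT, a divergent long non-coding RNA whose nearest end is 239 bp from that of BTG1, and 2765 bp from the non-coding LINC01619, which overlaps the gene's other end. A peak there cannot be given to 1 of these genes. The nearest summit of p53WT 2 lay 215.9 kb from BTG1, that of CASM34 1 lay 3.69 Mb away and that of p53WT 1 lay 18.1 Mb away. A call in CASM34 2 alone was made for 5.21% of protein-coding genes.

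BTG2, on chromosome 1 from 203305519 to 203309602, is a textbook p53 target with a response element described near its start. Its nearest summits lay 1.10 Mb away in CASM34 1, 2.64 Mb in CASM34 2, 25.2 Mb in p53WT 1 and 193.4 kb in p53WT 2, the last inside OPTC. Both BTG genes are shown by the 250 bases before their RefSeq starts (build GRCh38.p14, each written 5′ to 3′ along its own strand), since the paralogues differed in their calls. The BTG1 window is chr12:92145847-92146096 on the minus strand and the BTG2 window is chr1:203305269-203305518 on the plus strand. Capitals mark the p53 decamer, the 10-base unit of the p53 consensus, with at most 1 mismatch, a choice added after the data were seen.
BTG1: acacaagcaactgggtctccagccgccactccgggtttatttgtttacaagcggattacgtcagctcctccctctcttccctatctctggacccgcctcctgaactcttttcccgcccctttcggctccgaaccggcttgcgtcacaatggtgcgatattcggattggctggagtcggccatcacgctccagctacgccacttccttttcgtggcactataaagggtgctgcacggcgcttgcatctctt
BTG2: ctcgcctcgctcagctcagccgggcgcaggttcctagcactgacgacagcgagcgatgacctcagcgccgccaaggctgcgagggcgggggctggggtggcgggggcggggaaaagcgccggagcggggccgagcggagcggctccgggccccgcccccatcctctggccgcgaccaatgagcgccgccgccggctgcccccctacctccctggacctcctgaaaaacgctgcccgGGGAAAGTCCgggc
The BTG1 window holds 0 such decamers and lies upstream of the peak, so that 0 of its bases were inside it. The BTG2 window holds 1. A decamer with at most 1 mismatch was present in 55.3% of 22198 windows of the same 250 bases before the starts of protein-coding genes.

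PLK2 had a peak in p53WT 2 alone of the 4 libraries. The gene lies on chromosome 5 from 58453982 to 58460086, read from the end of higher coordinate. The p53WT 2 peak ran from 58460243 to 58460484, wholly upstream, with its summit 202 bp before the start, a fold of 4.18 and a −log10 q of 2.02. The lowest −log10 q in that list was 1.31. The nearest summits of the other libraries were 1.50 Mb away in CASM34 1, 1.25 Mb in CASM34 2 and 8.31 Mb in p53WT 1. A call in p53WT 2 alone was made for 10.3% of protein-coding genes.

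Of the members in the promoter table, PLK2 was the only one with a peak over its promoter. The 250 bases before its start (chr5:58460087-58460336, minus strand, GRCh38.p14) are shown with the 94 bases inside the p53WT 2 peak in capitals.
PLK2: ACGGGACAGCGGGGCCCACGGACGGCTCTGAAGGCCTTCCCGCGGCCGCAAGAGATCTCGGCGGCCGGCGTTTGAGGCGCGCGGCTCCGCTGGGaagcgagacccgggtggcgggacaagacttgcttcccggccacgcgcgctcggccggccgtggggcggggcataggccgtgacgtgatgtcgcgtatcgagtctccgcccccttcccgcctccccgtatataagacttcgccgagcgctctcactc
The lower-case part holds a p53 decamer with no mismatch, shown here in capitals.
PLK2 decamer: AGACTTGCTT
It lies at chr5:58460209-58460218, with its first base 132 bases before the start, 24 bases outside the peak and 70 bp from the summit. An exact decamer was present in 5.28% of the 22198 windows of 250 bases. A match is a description of letters and not a bound site.

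Pairs of p53 decamers with 0 to 13 bases between them were searched in the 300-base windows (250 before to 50 after the start) of the 5 members in the table. GADD45A was not in the table. Bases outside these windows were not searched, so the counts do not say whether the genes have p53 sites elsewhere. The consensus is its own reverse complement, so both strands were covered. At most 2 mismatches in all were allowed, and 0 of the 5 windows held such a pair, against 6.85% of all windows. With 3 mismatches 1 window did, that of PLK2, against 36.3% of all windows. The PLK2 pair lies at chr5:58460214-58460242, with its decamers in capitals and 9 bases between them.
PLK2 pair: AAGCGAGACCcgggtggcgGGACAAGACT
It shares bases with the exact decamer and borders the p53WT 2 peak without entering it. The guanine and cytosine share was 70.0% in the PLK2 window and 56.0% in that of BTG1. It was 73.3% in the window of BTG2, 71.0% in that of PLK3 and 63.7% in that of SFN. The genes with a peak therefore held both the lowest share of the 5 and a middle one.

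PLK3, on chromosome 1 from 44800377 to 44805990, had its nearest summits 309.4 kb away in CASM34 2 and 400.1 kb away in p53WT 2, both inside ZSWIM5. They were 754.8 kb away in CASM34 1 and 1.44 Mb away in p53WT 1. SFN, on chromosome 1 from 26863149 to 26864456, came closest to a call among the genes without one. The libraries numbered 2 both had a peak inside NUDC, which encodes a nuclear distribution protein, with summits 57.45 kb from SFN in CASM34 2 and 57.41 kb in p53WT 2. These summits were 44 bp apart and their peaks overlapped by 156 bp. The nearest summits of CASM34 1 and p53WT 1 both lay 4.57 Mb from SFN, inside SERINC2. A gene without a call in any library, as with BTG2, PLK3 and SFN, was the common case, at 77.8% of protein-coding genes.

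**Figure D2:**
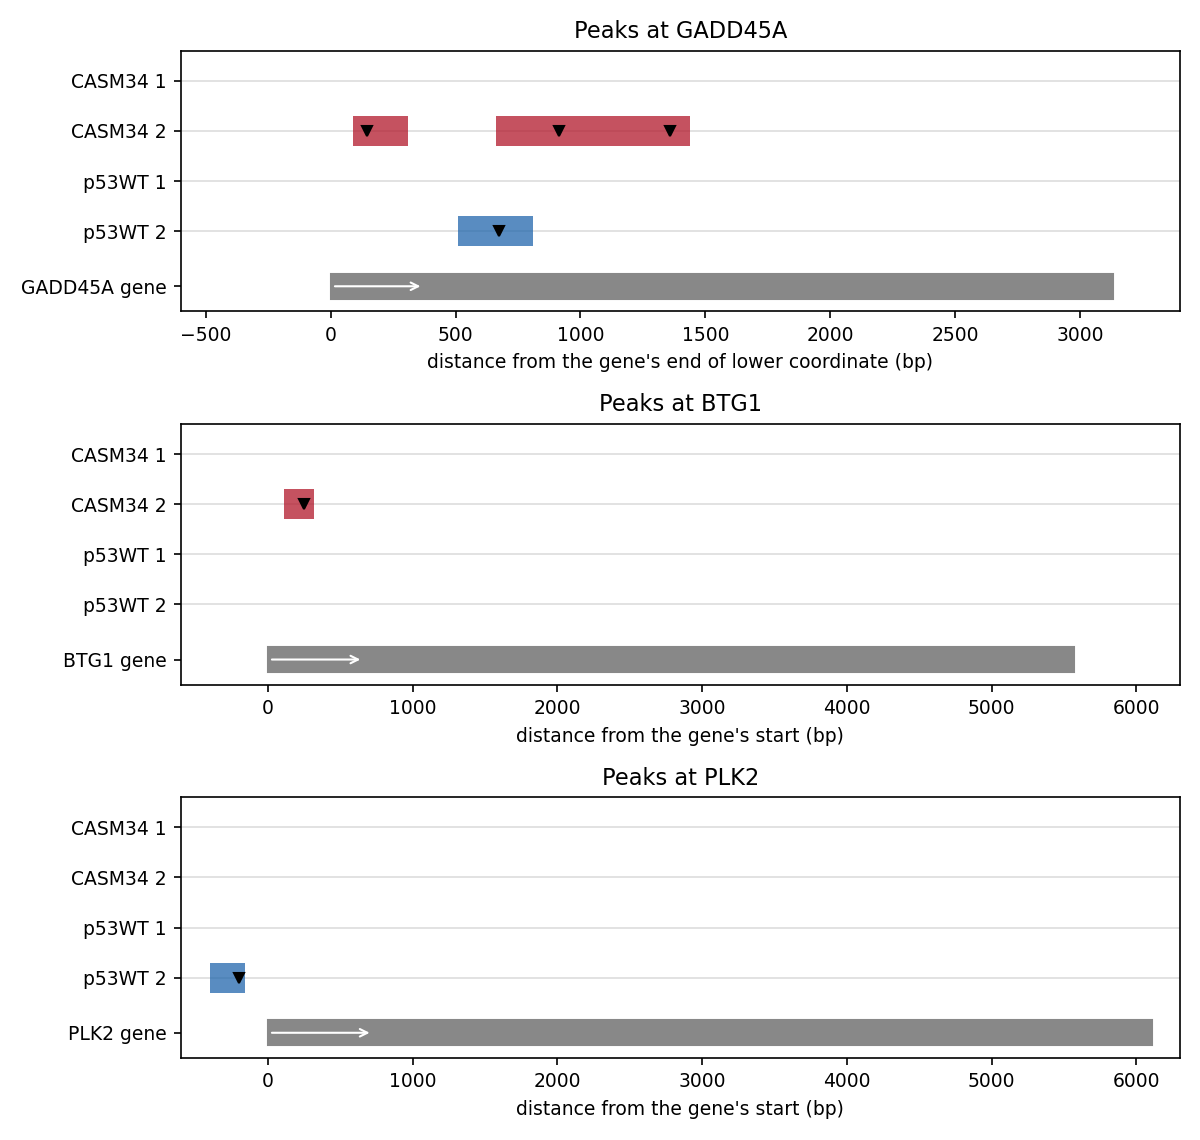
Peaks (coloured boxes) and summits (triangles) at GADD45A, BTG1 and PLK2 in the 4 libraries, with the distance in bp from the gene's start, or from the end of lower coordinate for GADD45A. The grey bar is the gene and the arrow its direction. GADD45A has peaks in CASM34 2 and p53WT 2, BTG1 has 1 in CASM34 2 inside the gene, and PLK2 has 1 in p53WT 2 before its start.

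The members' peaks lay near gene starts, as most genic peaks of the libraries numbered 2 did. Of 1451 CASM34 2 peaks at genes with a start in the promoter table, 67.1% had a summit within 1 kb of a start, and these lay at a median of 178 bp downstream. In p53WT 2 it was 65.8% of 2334 peaks, at a median of 156 bp downstream. The share was lower in the libraries numbered 1, at 26.2% of 225 peaks in CASM34 1 and 15.5% of 168 peaks in p53WT 1. The BTG1 summit, 250 bp downstream, was on the usual side. The PLK2 summit was on the other side of the start, where 21.0% of the p53WT 2 peaks within 1 kb were. GADD45A is not among these genes, and its CASM34 2 summits at 146 and 915 bp and its p53WT 2 summit at 672 bp were also inside the gene.

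**Figure D3:**
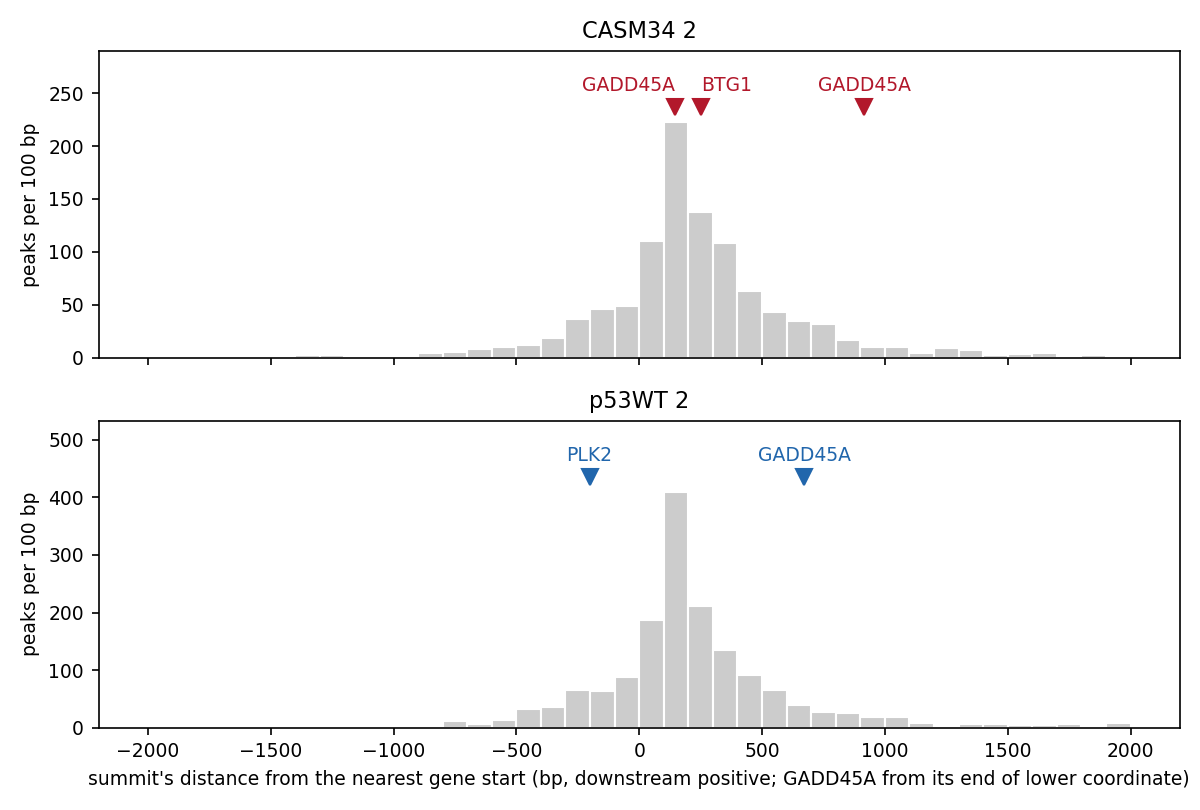
Peaks per 100 bp by the distance of the summit from the nearest gene start (bp, downstream positive) in CASM34 2 and p53WT 2, for genes in the promoter table. Triangles mark the members' summits. The BTG1 summit stands 250 bp downstream, the PLK2 summit 202 bp upstream, and the GADD45A summits, measured from the end of lower coordinate, at 146 and 915 bp in CASM34 2 and 672 bp in p53WT 2.

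The members' peaks differed in strength within their lists. The wide GADD45A peak of CASM34 2 was stronger than 72.4% of all peaks of that list by −log10 p, and than 90.4% of the 1824 peaks at protein-coding genes. It was also wider than 98.5% of those. The first GADD45A peak of CASM34 2 was at the 49.98 percentile of its list, and the BTG1 peak of CASM34 2 was at the 46.5 percentile. In p53WT 2 the GADD45A peak was at the 54.0 percentile, stronger than 63.6% of the 2898 genic peaks. The PLK2 peak was at the 23.4 percentile, stronger than 26.9% of genic peaks. Percentiles of lists of different length cannot show whether strength changed between groups.

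**Figure D4:**
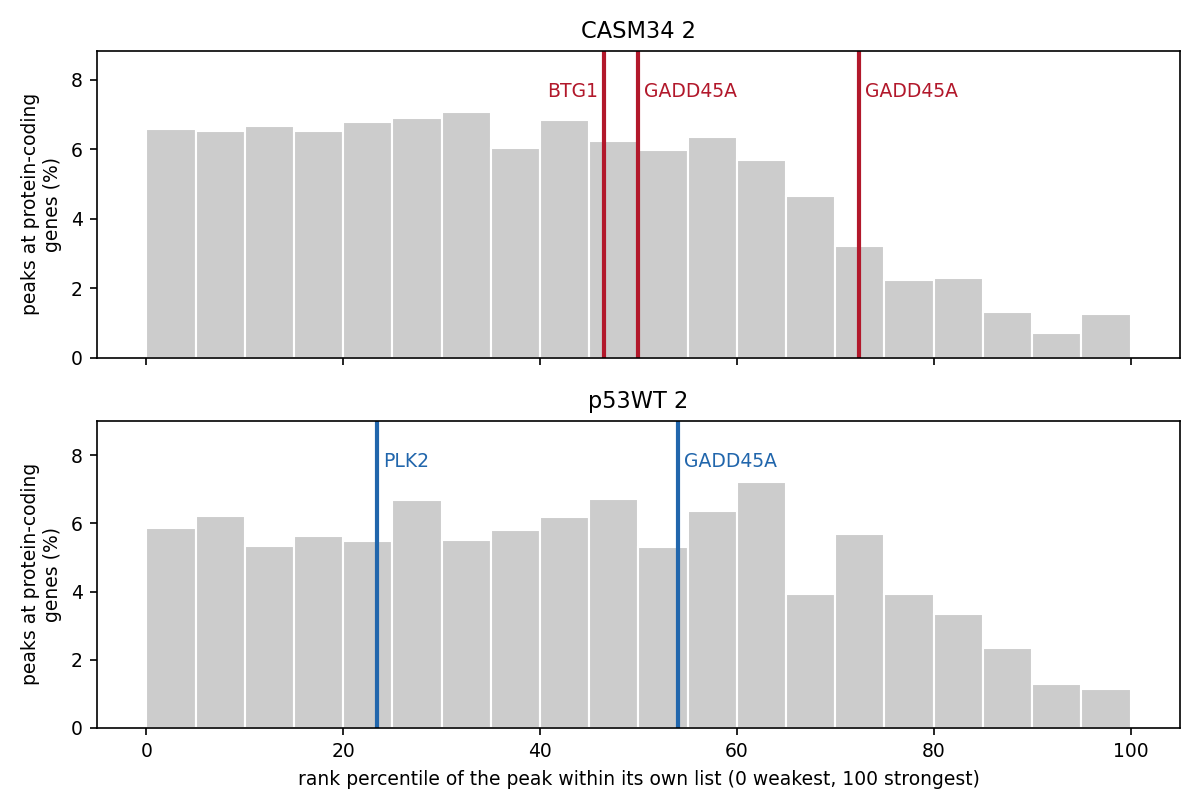
Share of peaks at protein-coding genes (%) by rank percentile within the list, where 100 is the strongest, in CASM34 2 and p53WT 2. Vertical lines mark the members' peaks: BTG1 at 46.5 and GADD45A at 49.98 and 72.4 in CASM34 2, and PLK2 at 23.4 and GADD45A at 54.0 in p53WT 2.

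Whether the groups differed at any of the 6 genes cannot be decided from 2 libraries against 2. GADD45A had 0 and 2 peaks in the CASM34 libraries and 0 and 1 in the p53WT libraries, a difference of 0.5 peaks between group means (exact two-sided permutation p = 1). Without CASM34 2 this difference turned to -0.5; it was 1.5 without CASM34 1, 0 without p53WT 1 and 1 without p53WT 2. BTG1 had 0 and 1 peaks in the CASM34 libraries and 0 and 0 in the p53WT libraries, a difference of 0.5, and PLK2 had 0 and 0 in the CASM34 libraries and 0 and 1 in the p53WT libraries, a difference of -0.5 (exact two-sided permutation p = 1 for each). The BTG1 difference was 0 without CASM34 2 and 1 without CASM34 1, and the PLK2 difference was 0 without p53WT 2 and -1 without p53WT 1. At GADD45A the libraries within each group differed by more than the group means did. At BTG1 and PLK2 the only peak was in 1 library, so its group's libraries differ by more than the group means by construction. With 2 libraries against 2 the smallest possible p is 0.333, so that no gene could have passed. The number of members called averaged 1 ± 1.41 in CASM34 and 1 ± 1.41 in p53WT (SD, n = 2 each). Over all protein-coding genes, 0.0948% were called in both CASM34 libraries and neither p53WT library, and 0.170% in both p53WT libraries and neither CASM34 library.

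Of 38 related genes, 15 had a summit inside or within 10 kb in at least 1 library, beside 22.2% of all protein-coding genes. The list held 15 relatives of the members and 23 partners and other genes of the G2/M step. CASM34 2 called 9 of the 38 and p53WT 2 called 10, beside 10.9% and 16.2% of all protein-coding genes. CASM34 1 and p53WT 1 called 0, beside 1.67% and 1.39% of all protein-coding genes. Among the relatives 5 of 15 were called in CASM34 2 and 5 of 15 in p53WT 2. The number called in both was 4, namely TOB1, YWHAB, YWHAG and YWHAZ, beside 5.44% of all protein-coding genes. Whether these lists differ from other genes was not tested.

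The other 14-3-3 genes encode adaptor proteins for phosphorylated partners. Of these 6 genes, 4 were called in CASM34 2 (YWHAB, YWHAG, YWHAH and YWHAZ) and 3 in p53WT 2 (YWHAB, YWHAG and YWHAZ), beside 10.9% of protein-coding genes in CASM34 2 and 16.2% in p53WT 2. Splitting the relatives by family was not planned, and whether the 14-3-3 genes differ from other genes was not tested. YWHAE and YWHAQ, like SFN, had 0 calls. YWHAZ had 3 peaks in CASM34 2 and 1 in p53WT 2. Its best peaks ranked highest, with a −log10 q of 5.08 in CASM34 2 and 6.26 in p53WT 2. The nearest summits of the 2 libraries at YWHAZ were 7 bp apart, and need not be those of the best peaks. At YWHAG the peaks of the 2 libraries did not overlap, with summits 567 bp apart and a −log10 q of 1.81 in CASM34 2 and 4.14 in p53WT 2. At YWHAB the summits lay 24715 bp apart. The p53WT 2 summit was inside the gene, 238 bp downstream of a start, and the CASM34 2 summit was 2126 bp outside the gene. YWHAH had its peak in CASM34 2 with a summit 59 bp downstream of a start and a −log10 q of 4.37.

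Of the 9 other GADD45, BTG, TOB and PLK genes, TOB1 and GADD45G had a call, a share near the 22.2% of all protein-coding genes. TOB1, an antiproliferative protein of the BTG family, had 1 peak in CASM34 2 and 2 in p53WT 2. Peaks of the 2 libraries overlapped there, with the nearest summits 125 bp apart. The best −log10 q at TOB1 was 2.51 in CASM34 2 and 2.65 in p53WT 2. GADD45G, a paralogue of GADD45A, was called in p53WT 2 alone, 787 bp upstream of its start with a −log10 q of 3.51. GADD45B, BTG3, BTG4, TOB2, PLK1, PLK4 and PLK5 had 0 calls.

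Of the 23 partners, 4 were called in CASM34 2, 5 in p53WT 2 and 0 in both, beside 10.9%, 16.2% and 5.44% of all protein-coding genes. These counts are too small to set apart from those shares. Those of CASM34 2 were CNOT6 (−log10 q of 3.48), CNOT8 (1.40) and PRMT1 (1.61), which encode proteins that the BTG family binds or works with, and the stress kinase gene MAPK8 (2.57). Those of p53WT 2 were MAP3K4 (−log10 q of 5.88), the kinase that GADD45 proteins activate, and MAPK14 (3.54), PCNA (2.02), CDC25A (1.38) and CDC25C (1.35). MAPK14 is p38, which acts below MAP3K4, and the CDC25 phosphatases activate CDK1. CNOT8, CDC25A and CDC25C stand close to the lowest −log10 q of their lists, 1.30 in CASM34 2 and 1.31 in p53WT 2. Whether the partners called in 1 library and not the other differ between the groups was not tested.

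**Figure D5:**
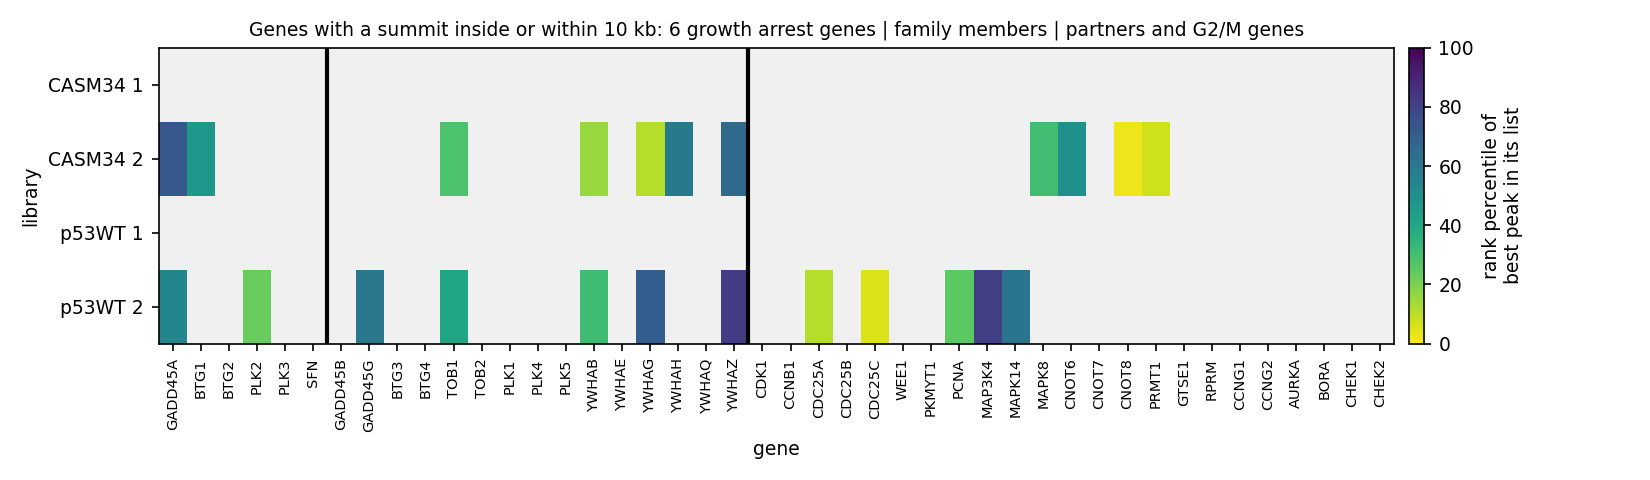
Rank percentile, within its own list, of the best peak inside or within 10 kb of each gene (columns) in each library (rows), where darker is stronger and light grey means no summit. The 6 members stand left of the first line, then 15 relatives and 23 partners. Rows CASM34 1 and p53WT 1 are empty, CASM34 2 has 9 and p53WT 2 has 10 of the 38 related genes.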

How the data were processed

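Peaks were called per library and replicates were not pooled. Trim Galore, Bowtie2 and bedtools were used with build GRCh38, per the submitters' processing notes. Which peak caller, control and threshold were used is not given in the sources read. Each deposited row gives an interval, a summit offset, a fold (ratio of signal over background), a −log10 p, a −log10 q and a score that follows the deposited −log10 q. Coordinates are 1-based.

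Several summits of 1 interval were taken as 1 peak at the summit with the highest −log10 p. Chromosomes 1 to 22, X and Y were kept. Called genes had a summit inside them or within 10 kb. Genes, starts and promoter sequences came from RefSeq tables of GRCh38.p14. All 6 members matched the gene table and 5 the promoter table, which covers 79.1% of protein-coding genes. The rank percentile is the percent of a list's peaks with a lower −log10 p. Peaks overlapped when they shared at least 1 bp. Peak numbers per gene were compared by exact permutation over the 4 libraries, with every split enumerated. The gene calls and the motif search were tested on simulated data. Analyses ran in Python 3.11.15 with pandas 2.3.3 and numpy 2.4.6.

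The members and the list of related genes were chosen with earlier results of these data known. Named were the 6 members, the nearest peak of each library without a call, and every listed gene with a call. Alternatives are given in the closing section. A planned description of 1 locus is not reported here.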

Additional observations from a re-analysis of the deposited data

How the results depend on the processing

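In CASM34 2, 1 member gene (GADD45A) was called past a −log10 q of 5 and 1 when every list was held to 1604 peaks, in place of 2. In p53WT 2, 1 (GADD45A) was called past a −log10 q of 3, 0 past 5 and 0 with lists of equal length, so the call shared by both forms of p53 was lost in those 2 settings. The difference at BTG1 became 0 past 5 and with equal lists, and that at PLK2 became 0 past 3, past 5 and with equal lists. At GADD45A the difference went from 0.5 to 1 with equal lists and when every deposited summit was counted. The 38 related genes called numbered 3 in CASM34 2 and 5 in p53WT 2 past a −log10 q of 3, 1 in CASM34 2 and 2 in p53WT 2 past 5, and 2 in CASM34 2 and 3 in p53WT 2 with equal lists; within 50 kb, CASM34 1 and p53WT 1 called 1 each. Protein-coding genes called in CASM34 1, CASM34 2, p53WT 1 and p53WT 2 were 0.958%, 5.54%, 0.904% and 6.48% past a −log10 q of 3, and 0.664%, 1.74%, 0.599% and 1.83% past 5. Within 50 kb they were 3.52%, 18.9%, 2.74% and 27.5%. With equal lists they were 3.93% in CASM34 2 and 3.53% in p53WT 2. Stricter lists hold fewer peaks and wider windows more genes by construction. Leaving out 1 library at a time, the difference in members called ran from -1 to 1, that at GADD45A from -0.5 to 1.5, that at BTG1 from 0 to 1 and that at PLK2 from -1 to 0. The promoter pairs were 0 at 2 mismatches and 1 with 3. Of 168 recomputed values, 109 equalled the reported one, 38 kept its sign at another size, 10 became 0, 10 left 0 and 1 changed sign. With the replicate number as a block, the differences were 0.5 at GADD45A, 0.5 at BTG1 and -0.5 at PLK2, and no call changed. The labels link same-numbered libraries by that number alone, yet their deviations from the group mean correlated at 0.31 across 20033 genes. What else these libraries share was not tested. The unknown depth limits every absent call.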
